A study of Mus musculus with 4 samples.

Results

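The 9 genes described here set the pace of G1, the phase in which an activated T cell commits to division: the transcription factor gene Myc, the D-type cyclin genes Ccnd2 and Ccnd3, the cyclin-dependent kinase genes Cdk4 and Cdk6, the kinase inhibitor genes Cdkn1a (p21) and Cdkn1b (p27), and the kinase genes Pim1 and Pim2. They were chosen by name, with earlier results of these data known. Every probe set that names only 1 of them was used, 24 in all. They are 9 of the 18194 genes that have a probe set of their own on the array. D-type cyclins bind CDK4 and CDK6, and the complexes phosphorylate the retinoblastoma protein so that E2F factors can switch on the genes of DNA replication. The inhibitors p21 and p27 bind these and later cyclin complexes. Myc drives cell growth and the making of ribosomes. Pim kinases need no activating step after translation, so their activity follows the amount of protein, which was not measured here. The Pim genes are well known targets of cytokine signalling through STAT3 and STAT5 in lymphocytes.

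Expression was measured on Affymetrix Mouse Genome arrays in CD4+ T cells of C57BL/6J mice that carry the OT2 T cell receptor transgene. Naive cells (CD44-, CD62L+) from spleen and lymph nodes were sorted and stimulated for 72 h with plate-bound anti-CD3 and anti-CD28 in IL-6 at 20 ng/ml and TGF-beta at 2 ng/ml with IL-4 blocked, a condition for Th17 differentiation. STAT3 wild type (stat3 fl/fl OT2) and STAT3-deficient (CD4-Cre stat3 fl/fl OT2) cultures also received anti-IL-2 at 10 ug/ml. STAT5 wild type (stat5 fl/fl OT2) and STAT5-deficient (CD4-Cre stat5 fl/fl OT2) cultures received IL-2 at 100 IU/ml instead. The Cre is driven by the Cd4 promoter, which is active from the thymus onward, so deletion is not limited to the cultured stage, and the controls lacked Cre. The genotype field of both deficient samples ends in the words for wild type, against their titles; the titles were used. The labels do not say how many mice gave each culture.

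Each group is 1 array. No difference below has a replicate check, none carries a p-value or SE, and precision is limited by having so few arrays. The spread that could be measured is between probe sets of the same gene on the same arrays, a technical spread. Its median SD over the 5557 genes with several probe sets past the filter was 0.23 for the STAT3 pair, 0.17 for the STAT5 pair and 0.21 between the controls. Levels are the deposited values, read on a log2 scale, on which 1 unit is 2-fold. Lower and higher calls were made at 2-fold. Of all genes, 12440 had a level above 6.20 (the median of all values, used as the background limit) on at least 1 array and were compared, and all 9 genes were among them. Of their 24 probe sets, 23 passed that limit on at least 1 array, and the exception belongs to Cdkn1b.

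The targeted genes go with the titles. Stat3 stood at 12.87 in STAT3 wild type and 9.93 in STAT3-deficient cells, and at 12.33 and 12.80 in the STAT5 wild type and deficient cells, and its other 3 probe sets differed by -2.97, -0.41 and -0.22 in the STAT3 pair. Stat5a stood at 10.73, 10.59, 10.92 and 5.91 in the same order, and Stat5b at 11.39, 10.97, 11.33 and 6.09. The median compared gene differed by -0.20 without STAT3, by 0.06 without STAT5 and by 0.06 between controls, so differences in the STAT3 pair are also given after each array was centred on its median, which adds 0.24. In the STAT3 pair 71.8% of called genes were lower as deposited and 52.6% with centring. Between controls 55.7% were lower as deposited and 26.4% with centring. Centring there moved the median compared gene away from 0, from 0.06 to 0.26, so the smaller share follows that shift. The 10 measured CD4 T cell identity genes were above the background limit on all 4 arrays, with medians of 11.76 to 12.16. Of 6 B cell markers 4 to 6 lay under the limit on each array, of 9 myeloid markers 5 or 6, and of 4 NK cell markers 3 or 4, while the CD8 T cell gene Cd8b1 stood at 7.70 to 8.06. Over the 4 arrays the summed log2 levels ran from 119 to 121 for the CD4 T cell genes. They ran from 32.0 to 34.0 for B cell, 49.7 to 52.8 for myeloid and 17.0 to 19.3 for NK cell markers. For CD8 T cell markers they ran from 13.9 to 14.9, and for gamma delta T cell markers from 11.6 to 12.8. Such a sum is not an amount of RNA, and most of the B cell, myeloid and NK cell genes in it lay under the limit. RNA quality was read from control probe sets at both ends of Actb and Gapdh, whose 3' minus 5' difference ran from -0.08 to 0.23 and was 0.23 for Actb on the STAT3-deficient array against 0.13 to 0.16 on the others. The part of these values in the results was not tested. In such bulk RNA, fewer cells of a type and less RNA per cell cannot be told apart.

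The promoters of the CDK and Pim genes are shown because the members of each pair differed most from each other in the deletions described next. RefSeq promoter sequences of GRCm38.p6, from 250 bases before to 50 after an annotated gene start, were at hand for 7 of the 9 genes, in 10 windows, and not for Myc and Ccnd2. The windows were searched on both strands for TTCNNNGAA (the STAT motif), CACGTG (the E-box that Myc binds with Max) and GTAAACA (a FOXO motif). Matches are in capitals, and none of those found overlap each other.
Cdk6 (chr5:3343643-3343942, plus strand): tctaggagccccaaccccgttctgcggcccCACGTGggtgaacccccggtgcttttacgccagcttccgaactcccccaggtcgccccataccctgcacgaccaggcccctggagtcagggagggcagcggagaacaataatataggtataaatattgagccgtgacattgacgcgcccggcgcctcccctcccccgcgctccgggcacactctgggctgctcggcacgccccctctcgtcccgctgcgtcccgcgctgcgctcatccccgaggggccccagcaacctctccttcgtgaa
Cdk4 (chr10:127063285-127063584, plus strand): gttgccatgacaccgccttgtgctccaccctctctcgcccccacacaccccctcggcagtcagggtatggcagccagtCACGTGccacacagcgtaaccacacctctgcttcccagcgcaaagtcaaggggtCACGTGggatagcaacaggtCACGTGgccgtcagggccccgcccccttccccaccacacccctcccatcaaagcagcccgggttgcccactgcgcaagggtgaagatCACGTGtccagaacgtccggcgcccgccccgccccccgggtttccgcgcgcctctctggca
Pim1, second annotated start (chr17:29492835-29493134, plus strand): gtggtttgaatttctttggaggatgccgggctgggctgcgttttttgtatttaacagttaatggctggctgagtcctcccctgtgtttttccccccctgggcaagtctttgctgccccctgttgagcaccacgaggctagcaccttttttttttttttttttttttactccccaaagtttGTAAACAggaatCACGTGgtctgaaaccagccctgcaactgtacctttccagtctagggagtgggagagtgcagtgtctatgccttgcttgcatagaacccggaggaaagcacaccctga
Pim2 (chrX:7878056-7878355, plus strand): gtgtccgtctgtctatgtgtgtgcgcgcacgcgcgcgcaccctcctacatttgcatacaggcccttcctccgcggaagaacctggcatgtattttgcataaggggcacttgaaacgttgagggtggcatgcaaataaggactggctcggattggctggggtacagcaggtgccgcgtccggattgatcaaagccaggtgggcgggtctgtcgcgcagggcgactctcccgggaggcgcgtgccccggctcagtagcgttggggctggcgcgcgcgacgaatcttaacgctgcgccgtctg
The Cdk4 window holds 4 E-boxes, which begin 172, 118, 98 and 11 bases before the gene start. The Cdk6 window holds 1, beginning 220 bases before it, and the second Pim1 window holds 1 at 58 bases and a FOXO motif at 70 bases. The first Ccnd3 window has a FOXO motif. The first Pim1 window, which is not printed, and the Pim2 window have no match. TTCNNNGAA was in 0 of the 10 windows, against 8.3% of all 32851 promoter windows of that length; CACGTG was in 3 of 10 against 7.15%, and GTAAACA in 2 of 10 against 3.65%. A match describes these letters only, and the study measured no binding.

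Cdk6 fell without STAT3 and was at its control level without STAT5. Cdk6, the kinase partner of D-type cyclins that is prominent in lymphocytes, stood at 12.50 in STAT3 wild type, 10.79 in STAT3-deficient, 12.63 in STAT5 wild type and 12.66 in STAT5-deficient cells. The STAT3-deficient culture was far below the other three, which lay within 0.16 of each other. The difference without STAT3 was -1.71, or 3.27-fold, and 2.27% of compared genes were as low or lower. The other 2 probe sets gave -1.45 and -2.13, so all 3 passed 2-fold, and with arrays centred the gene stood at -1.46. Without STAT5 the 3 probe sets ran from -0.07 to 0.03.

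Cdk4, which encodes the other D-type cyclin kinase, passed 2-fold in no pair. It stood at 11.35 in STAT3 wild type, 11.59 in STAT3-deficient, 11.52 in STAT5 wild type and 11.76 in STAT5-deficient cells. The differences were 0.25 without STAT3 (0.49 centred) and 0.24 without STAT5. Its probe sets disagreed in sign in the STAT3 pair, from -0.37 to 0.25 (SD 0.32, n = 3 probe sets). They also did in the STAT5 pair, from -0.05 to 0.33. The change in Cdk6 was thus 1.95 log2 units below that in Cdk4 without STAT3, while the same gap was -0.21 without STAT5 and -0.05 between controls.

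**Figure D1:**
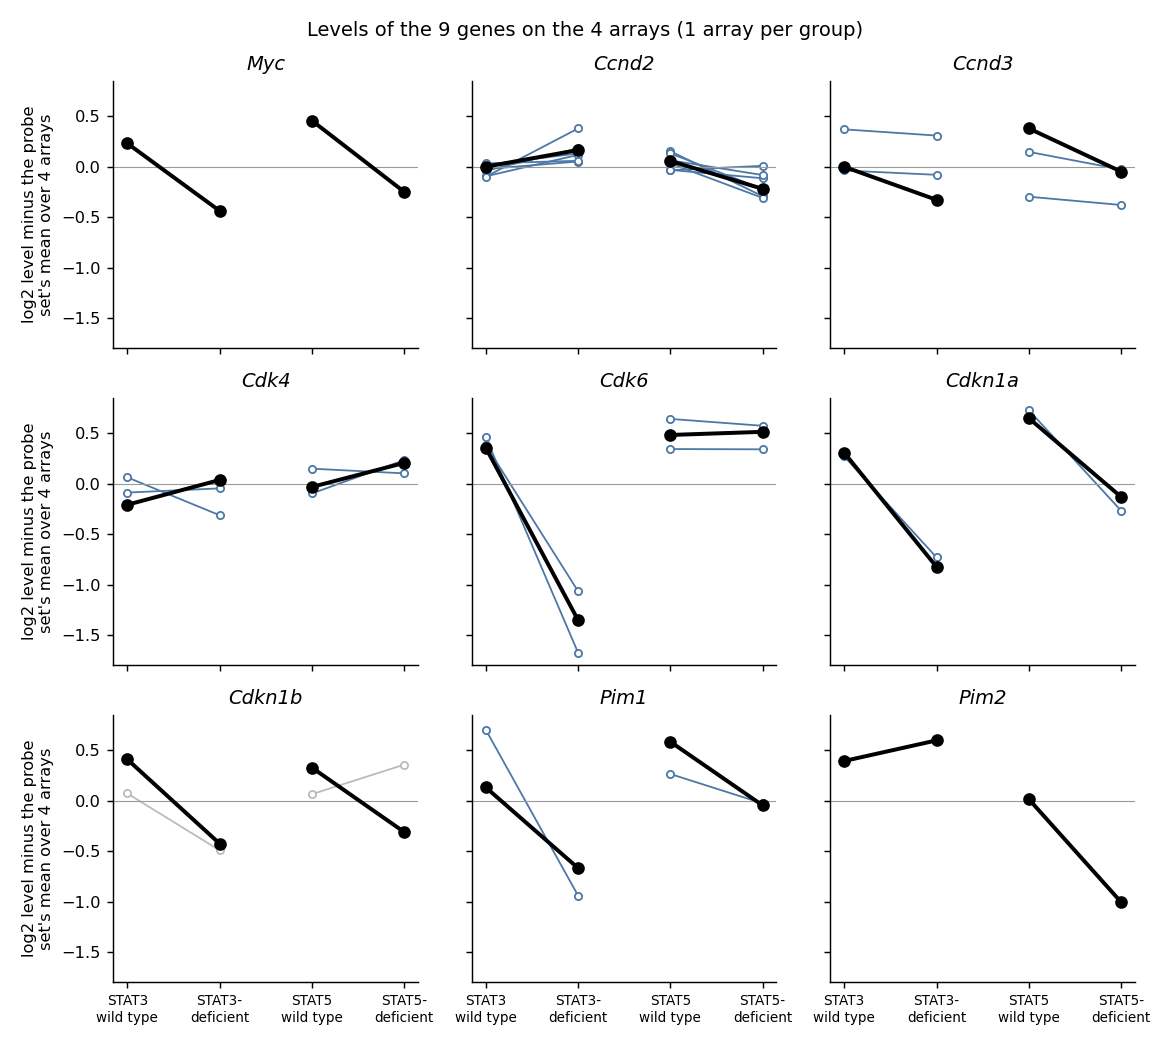
Level of each probe set of the 9 genes on the 4 arrays, as log2 value minus that probe set's mean over the arrays (vertical axis), with lines joining each control to its deficient culture. Black is the probe set that carries the gene's value, blue the others and grey the Cdkn1b probe set under the background limit; Cdk6 drops by 1.71 in the STAT3 pair and stays level in the STAT5 pair, whereas Pim2 drops by 1.02 in the STAT5 pair.

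Both inhibitor genes were at lower values in each deficient culture than in its control. Cdkn1a, which encodes p21, stood at 12.06 in STAT3 wild type, 10.93 in STAT3-deficient, 12.40 in STAT5 wild type and 11.62 in STAT5-deficient cells. Both deficient cultures lay below both controls. It fell without STAT3, by 1.13 or 2.19-fold, and its second probe set gave -1.0001, just at the limit. With arrays centred the difference was -0.89 and with intensity-dependent centring -0.97, so the call depends on the scaling. Without STAT5 the difference was -0.78 (1.72-fold), short of 2-fold, and the second probe set gave -0.995. Of all compared genes 5.66% were as low or lower than Cdkn1a without STAT3 and 2.94% without STAT5.

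Cdkn1b, which encodes p27, the inhibitor that resting T cells hold at high amounts, stood at 10.67 in STAT3 wild type, 9.84 in STAT3-deficient, 10.59 in STAT5 wild type and 9.95 in STAT5-deficient cells. The controls lay within 0.08 of each other and above both deficient cultures. The differences were -0.83 without STAT3 (-0.59 centred) and -0.64 without STAT5, so neither passed 2-fold. The value rests on 1 probe set, since the second lay between 4.04 and 4.89, under the background limit on all arrays.

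Pim2 fell without STAT5 and Pim1 showed lower values in both deficient cultures. Pim2, a survival kinase, stood at 10.95 in STAT3 wild type, 11.16 in STAT3-deficient, 10.58 in STAT5 wild type and 9.56 in STAT5-deficient cells, from its 1 probe set. The STAT5-deficient culture lay 1.02 or more below each of the others. The difference without STAT5 was -1.02, or 2.03-fold, just past the limit, and -1.08 with arrays centred, and 1.66% of compared genes were as low or lower. Without STAT3 the difference was 0.20 (0.45 centred), against a median gene at -0.20.

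Pim1, the most studied cytokine-induced Pim kinase gene, stood at 10.93 in STAT3 wild type, 10.13 in STAT3-deficient, 11.38 in STAT5 wild type and 10.75 in STAT5-deficient cells. Its second probe set gave 10.45, 8.81, 10.01 and 9.72 in the same order. Both had the STAT3-deficient culture lowest, but they disagreed on size. The STAT3 differences were -0.80 and -1.64, whose mean of -1.22 would pass 2-fold where the main value does not (-0.56 centred). Without STAT5 they were -0.63 and -0.29. Between the Pim genes the gap in difference, Pim1 minus Pim2, was -1.003 without STAT3 and 0.39 without STAT5.

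Myc stood at 11.81 in STAT3 wild type, 11.14 in STAT3-deficient, 12.03 in STAT5 wild type and 11.33 in STAT5-deficient cells, from its 1 probe set. Both deficient cultures lay below both controls. The differences were close in the pairs, -0.67 (1.59-fold) without STAT3 and -0.71 (1.63-fold) without STAT5, and neither passed 2-fold. They ranked differently, because 15.4% of compared genes were as low or lower without STAT3 and 3.59% without STAT5. With arrays centred, Myc stood at -0.42 and -0.77.

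The D-type cyclin genes passed 2-fold in no pair. Ccnd2, the D-type cyclin gene that antigen and IL-2 induce in T cells, stood at 12.71 in STAT3 wild type, 12.87 in STAT3-deficient, 12.77 in STAT5 wild type and 12.49 in STAT5-deficient cells. All 4 cultures lay within 0.38 of each other, with the STAT5-deficient culture lowest. Whether the steps in Ccnd2 exceed the technical spread was not tested. Its 7 probe sets, all past the filter, lay above 0 without STAT3 (0.02 to 0.48; the gene's value of 0.17 was 0.41 centred), and 6 of 7 lay below 0 without STAT5 (-0.45 to 0.04).

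Ccnd3, whose product is needed for thymocyte expansion, stood at 11.84 in STAT3 wild type, 11.52 in STAT3-deficient, 12.22 in STAT5 wild type and 11.80 in STAT5-deficient cells. The STAT3 wild type and STAT5-deficient cultures were within 0.05 of each other. The differences were -0.33 without STAT3 (-0.08 centred) and -0.43 without STAT5. Its 2 weaker probe sets gave -0.06 and -0.04 without STAT3 and -0.08 and -0.17 without STAT5, so the size rests on the strongest probe set.

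**Figure D2:**
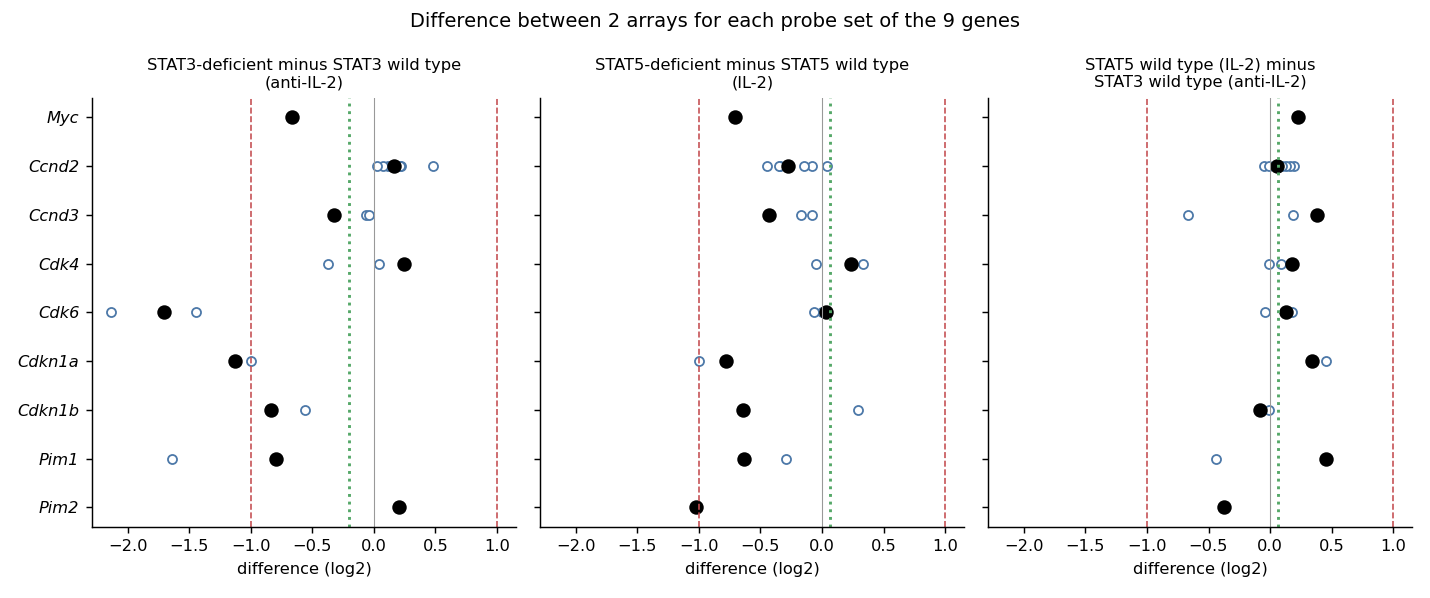
Difference in log2 level between 2 arrays (horizontal axis) for each probe set of the 9 genes in the 3 comparisons; filled points carry the gene's value and open points are its other probe sets. Dashed lines mark 2-fold and dotted lines the median of all compared genes (-0.20, 0.06 and 0.06); all 3 Cdk6 points lie beyond 2-fold without STAT3, and the Pim1 points there lie at -0.80 and -1.64.

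The 9 genes were chosen with earlier results of these data known, so the shares of all genes given here show scale and are no test. Counted over the 9 genes, 6 lay below 0 without STAT3, where 69.3% of all compared genes did, and 7 without STAT5, where 40.6% did. Of the 9, 2 were lower without STAT3 (Cdk6 and Cdkn1a) and 0 higher, where 7.23% of all compared genes were lower and 2.85% higher. Without STAT5, 1 was lower (Pim2) and 0 higher, against 1.74% and 1.86% of all genes. The median difference of the 9 was -0.67 without STAT3, against -0.20 for all genes, and -0.63 without STAT5, against 0.06. At a looser limit of 1.5-fold, 5 of 9 were lower without STAT3 (19.2% of all genes) and 5 of 9 without STAT5 (5.18%). Myc, Cdkn1a, Cdkn1b and Pim1 were lower at that limit in both deletions, 4 of 9 genes, where 2.09% of all compared genes were. With arrays centred, 2 of 9 met that limit in both (1.68% of all genes), Cdkn1a and Cdkn1b. The STAT3-deficient array held the lowest value for 6 of the 9 genes, against 52% of all compared genes, and for 5 against 33.6% with arrays centred.

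**Figure D3:**
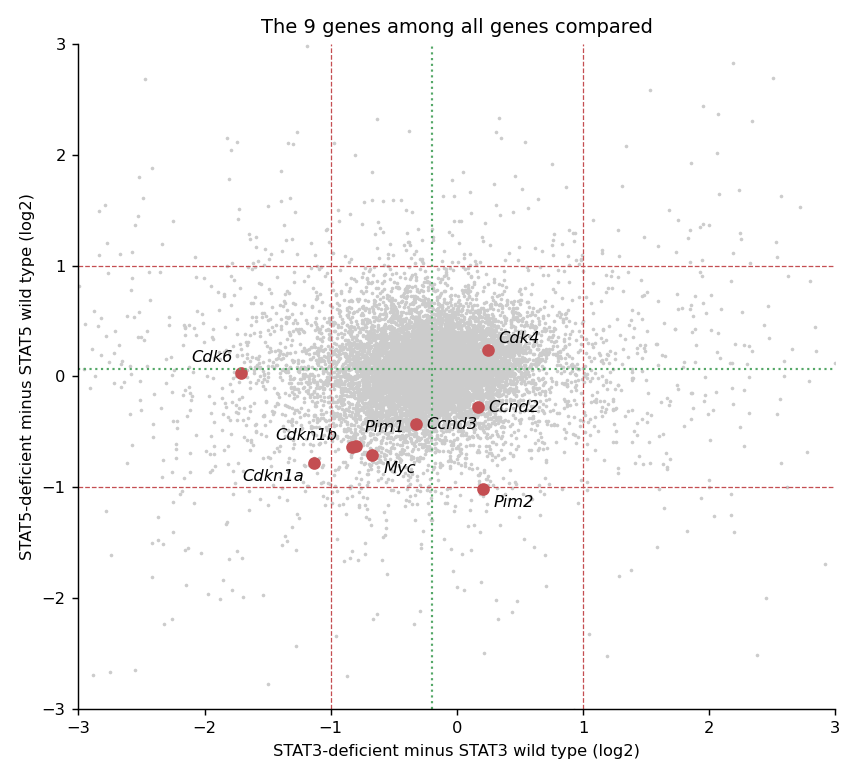
Each compared gene by its difference without STAT3 (horizontal axis, log2) and without STAT5 (vertical axis, log2), with the 9 genes in red, dashed lines at 2-fold and dotted lines at the medians; 125 genes lie outside the plotted range of 3. Myc, Cdkn1a, Cdkn1b and Pim1 sit together at the lower left, Cdk6 lies to the left near 0 on the vertical axis, and Pim2 lies at the bottom near 0.20 on the horizontal axis.

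The controls compare IL-2 added with IL-2 neutralised, but also differ in floxed allele, and these cannot be told apart. They share arrays with the deletions, so these values stand beside those above and are no separate support. None of the 9 genes passed 2-fold, where 2.35% of all genes were higher and 2.95% lower in STAT5 wild type. The differences were 0.45 for Pim1, 0.38 for Ccnd3, 0.34 for Cdkn1a, 0.23 for Myc, 0.18 for Cdk4, 0.13 for Cdk6, 0.06 for Ccnd2, -0.08 for Cdkn1b and -0.38 for Pim2. The 2 probe sets of Pim1 disagreed in sign (0.45 and -0.44), as did those of Ccnd3 (-0.67 to 0.38). Those of Ccnd2 (-0.05 to 0.19), Cdk4 (-0.01 to 0.18) and Cdk6 (-0.04 to 0.18) also disagreed in sign. Scaling turned the sign of the difference for 5 genes. Intensity-dependent centring turned Myc to -0.03, Cdk4 to -0.08, Cdk6 to -0.14 and Ccnd2 to -0.22, and array centring turned Cdkn1b to 0.11. Pim2 stayed below 0 under each scaling, from -0.61 to -0.19.

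Around these genes, other parts of the G1 machinery were read from lists chosen with earlier results known. The list counts stand beside 7.23% of all compared genes lower and 2.85% higher without STAT3, and 1.74% lower and 1.86% higher without STAT5. Of 13 measured other G1 and S-entry cyclins, kinases and inhibitors, 2 were lower without STAT3 and 0 higher, and 0 of 13 passed 2-fold without STAT5. The lower ones were Cdkn2d, which encodes the CDK4 and CDK6 inhibitor p19 (-1.11), and Cdk5, a kinase outside the cell cycle proper (-1.11); both missed 2-fold with arrays centred, at -0.87, and the 3 probe sets of Cdk5 ran from -1.11 to -0.49. Without STAT5 the farthest member was Cdkn2c, the gene of the inhibitor p18, at 0.80. Of the 13, 5 lay below 0 without STAT3, against 69.3% of all genes, and 1 without STAT5, against 40.6%, with medians of 0.15 and 0.22. The genes Cdkn1c, Cdkn2a, Cdkn2b and Cdk14 lay under the background limit on all arrays.

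Of 15 pocket proteins and E2F factors, 1 was lower without STAT3 and 0 without STAT5. That gene was Rb1, which encodes the retinoblastoma protein, the substrate of the D-type cyclin kinases. Rb1 stood at 10.40 in STAT3 wild type, 8.998 in STAT3-deficient, 10.82 in STAT5 wild type and 10.19 in STAT5-deficient cells. The STAT3-deficient culture was the lowest, with a difference of -1.40 (-1.16 centred) and -1.36 in the second probe set. Without STAT5 its probe sets gave -0.63 and -0.03. The other pocket protein genes, Rbl1 (-0.03) and Rbl2 (-0.51), did not pass, and the E2F activator gene E2f1 was at 0.04. Without STAT5, 3 of 15 lay below 0, against 40.6% of all genes (median 0.23), with Lin9 farthest at 0.85, although its second probe set gave -0.06.

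In the Myc network, 1 of 13 measured genes passed 2-fold in each deletion, and both encode partners of Max that oppose Myc. Mxd1 stood at 10.24 in STAT3 wild type, 7.97 in STAT3-deficient, 8.89 in STAT5 wild type and 9.06 in STAT5-deficient cells. It was highest in the control with IL-2 neutralised, and its difference of -2.27 without STAT3 held in all 3 probe sets (-2.27 to -1.30). Mxi1 stood at 10.58, 9.80, 11.15 and 9.49 in the same order of cultures. It fell without STAT5, by 1.66 (probe sets -1.66 and -1.48), and stood at -0.78 without STAT3.

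Genes that Myc is known to drive in growth and ribosome building passed 2-fold in neither deletion, 0 of 29 measured. Their median difference was 0.06 without STAT3, where 23 of 29 lay above the median gene, and 0.06 without STAT5, where 13 of 29 did. The farthest were Tfrc, the transferrin receptor gene, at 0.74 without STAT3, and Cad, a pyrimidine synthesis gene, at 0.52 without STAT5. The 6 probe sets of Tfrc disagreed in sign without STAT3, from -0.36 to 0.76. Between the controls 28 of 29 had a difference above 0, toward the culture with IL-2, and 1 lay below 0, where 44.7% of all compared genes did. The median was 0.63 against 0.06 for all genes, and 4 passed 2-fold upward (2.35% of all genes), or 6 with arrays centred. The 4 were Shmt2 (1.40), Tfrc (1.17), Rrp12 (1.12) and Nop58 (1.01), named after their values were seen, and probe sets of Shmt2 and Tfrc disagreed in sign. With arrays centred the list's median was 0.82, but that of the genes compared also rose, to 0.26. Intensity-dependent centring, which took Myc from 0.23 to -0.03 between the controls, was not run on this list.

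Among the third Pim kinase gene and genes of known Pim substrates, 1 of 9 was lower without STAT3 and 0 passed without STAT5. That gene was Map3k5, which encodes the stress kinase ASK1 (-1.02, or -0.77 centred). Pim3 stood at -0.65 without STAT3 and -0.16 without STAT5. Foxo1, a transcription factor that restrains division, was at -0.84 without STAT3 and -0.08 without STAT5. Without STAT5 the probe sets of both disagreed in sign, from -0.16 to 0.39 for Pim3 and from -0.08 to 0.61 for Foxo1. Foxo3 was the farthest without STAT5, at -0.59.

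**Figure D4:**
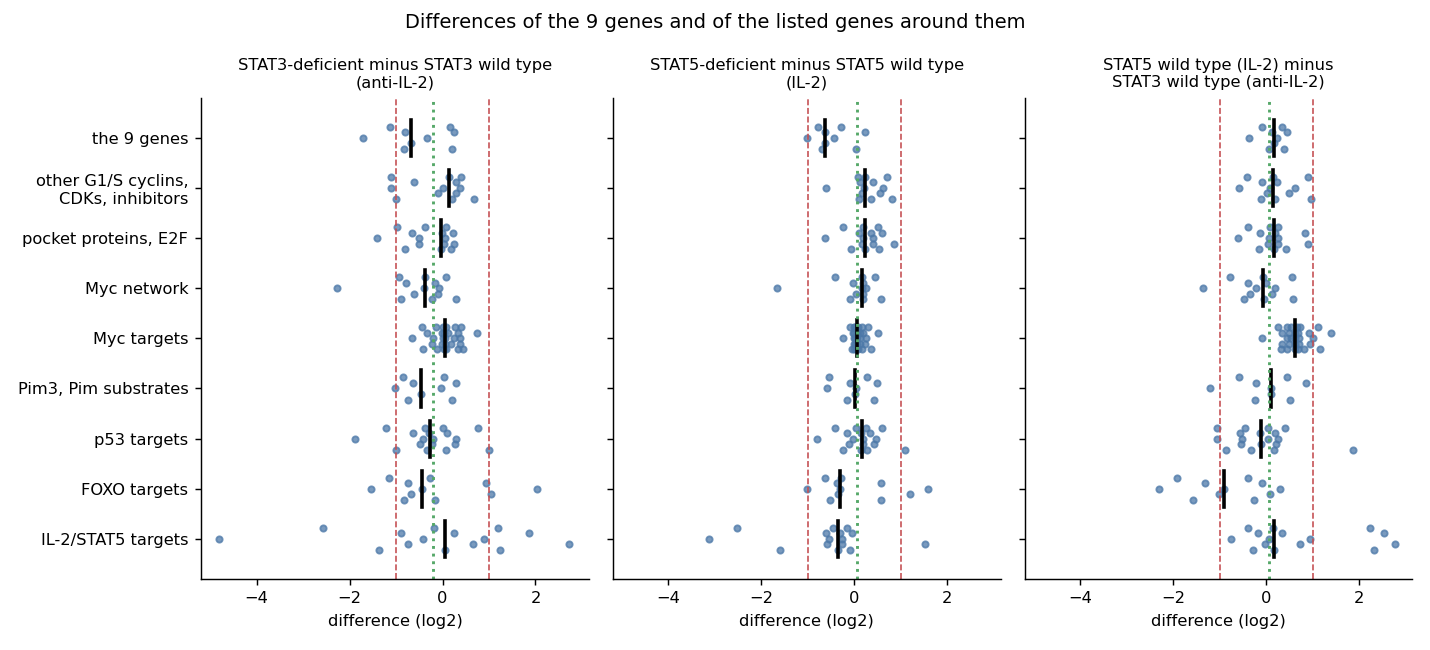
Differences in log2 level (horizontal axis) for the compared genes of each list (points, 1 per gene) in the 3 comparisons, with the list's median as a black bar, 2-fold as dashed lines and the median of all compared genes as a dotted line. The 9 genes have medians of -0.67 and -0.63 in the deletions, while the Myc targets have medians of 0.06 there and 0.63 between the controls.

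For the members whose 4 values spanned at least 1 log2 unit, the most alike profiles were sought among 2680 other genes with that span, by the Euclidean distance over the 4 arrays after each gene's mean was subtracted. Nearest to Cdk6 were Aqp3 (distance 0.11), a water and glycerol channel gene, Arfgap3 (0.11) and Flvcr1 (0.12), a heme exporter gene. Nearest to Cdkn1a were Bcan (0.08), Irf4 (0.11), a transcription factor gene of activated lymphocytes, and Siah1a (0.14). Nearest to Pim1 were Aacs, Kdm4c and Zfp995, each at 0.06, and nearest to Pim2 were Tert (0.10), Kbtbd11 (0.17) and Syt7 (0.17). With 4 points such a match is a description, and Bcan, Zfp995, Tert and Syt7 lay near the background limit.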

How the data were processed

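RNA of 4 cultures was measured on Affymetrix arrays, 1 for each group. The authors deposited 1 value per probe set, taken here as log2 because the 45101 values per array run from 2.48 to 15.09; processing with Affymetrix Power Tools is per the submitters' processing notes, and the sources used here do not give its version, the summarisation, the background correction or the base of the logarithm. On another base every fold change would differ. Array medians, 6.10 to 6.34, were left as deposited. Groups are from the sample titles.

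The platform annotation names 1 gene for 34958 probe sets, several for 932 and none for 9211, and only the first kind was used; 99.1% of Entrez identifiers, and all 9 members, matched RefSeq genes of GRCm38.p6. A gene's value is that of its brightest probe set by mean level. Genes whose highest value exceeded 6.20 (percentile 50 of all values) were compared, 12440 of 18194 (68.4%). With 1 array per group, differences carry no test and are called at 2-fold. The calculation was tested on simulated data. Python 3.11.15, pandas 2.3.3 and statsmodels 0.14.6 were used.

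The members and the gene lists were chosen with earlier results of these data known. Named are all members, the targeted genes, for each other list up to 4 genes with the largest differences past 2-fold per deletion or else the farthest gene, and the 3 nearest profiles of members spanning at least 1 log2 unit. The alternatives tried were averaging the probe sets of each gene, dropping those whose names end in _x_at or _s_at, no filter, a filter at percentile 75 (8.29), centring each array on its median, loess centring (span 0.4), thresholds of 1.5-fold and 3-fold, and, added after the data were seen, the mean of probe sets past the filter.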

Additional observations from a re-analysis of the deposited data

Results flagged for a closer look

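Among the 9 genes, 3 had differences of opposite sign in the deletions, and with 1 array per group the difference between the deletions was not tested. For Cdk6 the STAT5 effect minus the STAT3 effect was 1.74 (-1.71 without STAT3 and 0.03 without STAT5); the smaller value is near 0 and turned to -0.03 with arrays centred. For Pim2 the gap was -1.22 (0.20 and -1.02). For Ccnd2 it was -0.44 (0.17 and -0.28), with neither value past 2-fold. Among the other genes named, 4 passed 2-fold in opposite directions. The gap was -4.98 for Socs2 (1.86 and -3.12), -3.72 for Lta (1.19 and -2.52), 2.36 for Il7r (-1.16 and 1.21) and -2.06 for Ccr7 (1.04 and -1.03). With arrays centred Il7r stood at -0.91 without STAT3 and missed 2-fold. The mean of the 6 Socs2 probe sets was 0.89 without STAT3, short of 2-fold, and they ran from -3.12 to 0.28 without STAT5.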

How the results depend on the processing

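The count of members lower without STAT3, 2 as reported, was 1 (Cdk6) with arrays centred on their medians, 1 with loess centring, 5 at 1.5-fold, 1 at 3-fold and 3 (Pim1 added) with either average of probe sets; the count without STAT5, 1 as reported, was 5 at 1.5-fold and 0 at 3-fold. Under the alternatives run, no called member changed sign. Of 135 recomputed member differences, 106 moved by less than the median SD between probe sets. That count is no measure of robustness. Centring on array medians shifts every gene of a comparison by the same amount, and averaging cannot move Myc or Pim2, which have 1 probe set each. Dropping the probe sets prone to cross-matching moved 0 of 27, but among the members only Cdk4 takes its value from such a probe set. The differences of the other members could not change, so for them the drop cannot show whether cross-matching matters. Cdk4 went from 0.25 to 0.04 without STAT3 and from 0.24 to 0.33 without STAT5. Between the controls it went from 0.18 to -0.01. All genes called, 10.1%, 3.6% and 5.3% in the STAT3, STAT5 and control comparisons, were 24.9%, 11.6% and 20.8% at 1.5-fold and 4.2%, 1.15% and 1.42% at 3-fold. No paired analysis was possible because each group is 1 array without a replicate number, and for the same reason no array could be left out. Signal over background was judged by the level of 6.20 alone. Myc and Pim2 rest on 1 probe set each, with no second reading.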

Other observations

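Lists of genes downstream of the same signals, chosen with earlier results known, are given as values. Of all compared genes, 7.23% were lower and 2.85% higher without STAT3, and 1.74% lower and 1.86% higher without STAT5. Of 18 measured p53 target genes other than Cdkn1a, 3 were lower and 1 higher without STAT3, with a median of -0.26 against -0.20 for all genes. Pmaip1, which encodes the death-promoting protein NOXA, was at -1.89, Trp53inp1 at -1.21 and Gadd45a at -1.004, while Sesn2 stood at 1.002; with arrays centred 1 was lower and 2 higher. Without STAT5, 1 of 18 passed, Perp at 1.09, with a median of 0.17. Mdm2, the p53 feedback gene, was at -0.37 and 0.04.

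Of 11 measured FOXO target genes of T cells, 2 were higher and 2 lower without STAT3. Klf2, a quiescence factor gene, stood at 2.03 and Ccr7 at 1.04, whereas Sesn3 was at -1.55 and Il7r at -1.16. With arrays centred 3 were higher and 1 lower, as Il7r stood at -0.91 and Bcl2l11, named after its values were seen, at 1.18. As deposited, the 5 probe sets of Bcl2l11 disagreed in sign without STAT3, from -0.29 to 0.93. Without STAT5, Bcl6 (1.59) and Il7r (1.21) were higher and Ccr7 (-1.03) lower. Of 15 IL-2 and STAT5 target genes, 4 were higher (5 with arrays centred) and 3 lower without STAT3. Among them, Gzmb (2.72) and Socs2 (1.86) were higher and Socs3 (-4.82) and Il4ra (-2.57) lower. Gzmb, from 1 probe set, stood at 5.52 in STAT3 wild type, under the background limit, so the size of its difference is uncertain. Without STAT5, 14 of the 15 lay below 0, against 40.6% of all genes, with a median of -0.35 against 0.06 for all genes, and 3 were lower: Socs2 (-3.12), Lta (-2.52) and the survival gene Bcl2 (-1.60). Gzmb, at 1.53, was the 1 higher.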
